A study of Rattus norvegicus with 30 samples.

Results

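The PB response described here was measured in livers of male chimeric mice that carry rat hepatocytes. PB is phenobarbital, a barbiturate. The 14 arrays whose titles name a chimeric mouse with rat hepatocytes were taken, of 30 arrays in the series: 7 from animals on a diet with 0 ppm PB (control) and 7 from animals on a diet with 1000 ppm PB. Values are log2 scanner signals of the non-control probes minus each array's 75th percentile of that signal, so a level of 0 is a signal equal to the 75th percentile. The arrays carry probes for rat transcripts.

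All animals were male and were fed for 7 days. Crl:CD(SD) rats, called SD rats here, gave 4 control and 4 PB arrays, and CAR KO rats, which lack the constitutive androstane receptor (CAR), gave 4 and 4. Both rat groups had the same diets and served for comparison. No knockout is named for the chimeric mice or the SD rats. The strain and age of the host mice, the age of the rats, the donor of the rat hepatocytes and the share of host liver they replaced are not given in the sources used here. Each array is named a biological replicate in its title, and each diet had between 4 and 7 animals. A chimeric liver keeps the mouse host's non-parenchymal cells and any remaining mouse hepatocytes, and their RNA reaches a rat probe only as far as the sequences match. In bulk liver RNA, fewer cells of a type and less RNA per cell cannot be told apart.

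PB activates CAR, a nuclear receptor of hepatocytes, indirectly, by changing its phosphorylation. CAR then enters the nucleus, pairs with the retinoid X receptor and binds phenobarbital-responsive enhancers of cytochrome P450 and conjugation enzyme genes, of which the Cyp2b genes are the classic rodent examples. The pregnane X receptor (PXR) shares many of these targets, with Cyp3a genes as its own classic targets, and in rodents PB feeding is also known for liver enlargement and a wave of hepatocyte replication.

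Slide and diet were nearly the same split. Slide 1 held all 7 controls and PB 1 (the PB array of replicate 1), and slide 2 held PB 2 to 7 alone. Each claim was therefore checked in PB 1, and a further limma fit had slide as a block, in which the diet term rests on PB 1 against the controls of the same slide. The 75th percentile signal ran from 197 to 318 and the share of probes well above background from 50.8% to 58.1%. Array pairs correlated at 0.966 to 0.995 within the controls, 0.969 to 0.982 between PB 1 and controls, 0.965 to 0.979 between PB 1 and PB 2 to 7, and 0.918 to 0.97 between controls and PB 2 to 7. Control 2, control 4 and PB 4 stood apart from their groups on a principal component. Results are given with all arrays, and where leaving out these 3 arrays ended a call this is stated.

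Of 14445 genes or unnamed transcripts tested, 6168 passed limma's adjusted p of 0.05 (42.7%), with 2794 higher on PB (19.3%) and 3374 lower (23.4%). "Rose" and "fell" mean past this test. PB 1 lay above all 7 controls for 1295 of the 2794 rises and below all 7 for 1670 of the 3374 falls. Centring arrays on their median instead of the 75th percentile moved the median of all genes from 0.06 to 0.345 on the log2 scale and the share of calls that were higher from 45.3% to 70.8%, so small changes depend on the scaling. With slide as a block, 158 passed (1.09%), 102 higher (0.706%) and 56 lower (0.388%), and 143 of them were called in the same direction without the block. PB 1 lay above all 7 controls for 77 of 80 genes that rose at least 4-fold (12.6% of all genes tested had PB 1 above all controls). It lay below all 7 controls for 211 of 356 genes that fell at least 4-fold (22.4% of all genes tested). Over all genes tested, the ranges of the 2 diets did not overlap with PB higher for 720 (4.98%) and with PB lower for 1110 (7.68%).

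**Figure D1:**
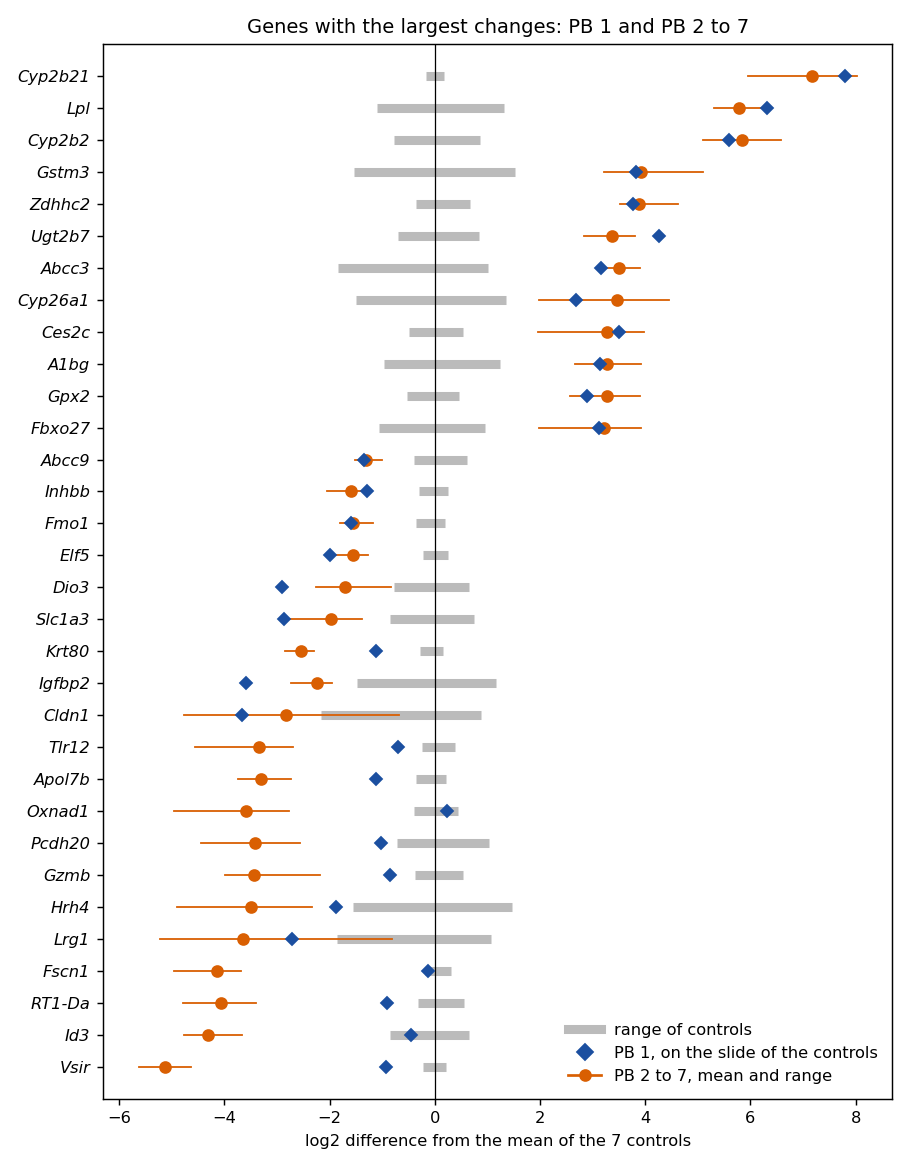
Log2 difference from the mean of the 7 controls (x axis) for the 12 largest rises, the 12 largest falls, and the largest rises and falls that also passed with slide as a block (y axis). Grey bars are the range of controls, diamonds PB 1, and circles with lines the mean and range of PB 2 to 7. For every rise shown PB 1 lies beyond the controls, while for Fscn1, Id3 and Oxnad1 it lies among them.

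The mean level of CAR and PXR responsive P450 enzymes and their partners was higher on every PB array than on any control. Of 33 such genes tested, 18 rose and 0 fell, and for 15 of the 18 PB 1 was above all controls. Over all genes tested 19.3% rose, 23.4% fell and 12.6% had PB 1 above all controls. The median log2 change was 0.56 against 0.06 over all genes tested, and 0.47 against -0.04 with slide as a block, under which 7 rose and 0 fell. Under quantile normalization 17 rose and 4 fell, and with normexp background correction 18 rose and 3 fell. The mean shift of the list from the control mean was -0.10 to 0.10 on the control arrays, 1.06 on PB 1 and 0.94 to 1.28 on PB 2 to 7. The arrays of the 2 diets did not overlap in this mean.

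Cyp2b2, a P450 enzyme and a standard marker of PB exposure in rat liver, had levels of -0.01 to 1.63 on control arrays, with a median of 0.92. On PB the level was 6.36 on PB 1 and 5.86 to 7.35 on PB 2 to 7, with a group median of 6.54. Every PB array lay far above every control. The log2 fold change was 5.81 ± 0.26 (SE, n = 7 and 7; limma adjusted p = 2.13e-09), a fold of 55.9, and 5.59 ± 0.54 with slide as a block (adjusted p = 0.000126). Another probe of Cyp2b2 gave 7.57 over all arrays and 7.27 for PB 1 alone. The Cyp2b genes are near-identical copies, so a Cyp2b probe can read a neighbour's transcript.

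Cyp2b21, a further Cyp2b gene, was not well above background on any of the 7 controls (-6.68 to -6.32, median -6.50). It was well above background on all 7 PB arrays, at 1.28 on PB 1 and -0.54 to 1.51 on PB 2 to 7 (group median 0.84). For bounds that take a dim group at the detection floor, here and below, the adjusted p is from the fit of measured signals. The signal was at least 81.3-fold higher on PB, with the dim group taken at the detection floor (limma adjusted p = 4.85e-11, and 9.38e-07 with slide as a block). Cyp3a23-3a1, the rat Cyp3a1 enzyme and a PXR target, ran from 6.40 to 7.17 on controls (median 6.84). Its PB levels were 8.62 on PB 1 and 8.45 to 8.87 on PB 2 to 7, again with no overlap. The change was 1.91 ± 0.13 (adjusted p = 1.13e-07), and 1.84 ± 0.25 with slide as a block (adjusted p = 0.00199).

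Partner genes of the P450 system moved with these enzymes. Ephx1, the microsomal epoxide hydrolase, ran from 1.07 to 2.82 on controls (median 1.96) and was 4.64 on PB 1 and 4.43 to 5.77 on PB 2 to 7. It rose by 3.12 ± 0.27 (adjusted p = 1.82e-06; with slide as a block 2.73, adjusted p = 0.0283). Akr7a3, an aldo-keto reductase of aflatoxin aldehydes, ran from 3.09 to 4.45 on controls (median 3.57) and was 6.93 on PB 1 and 6.20 to 7.02 on PB 2 to 7, a rise of 3.04 ± 0.20 (adjusted p = 9.37e-08; with slide as a block 3.22, adjusted p = 0.000861). Neither gene had a PB array within the control range. Alas1, the rate-limiting enzyme of heme synthesis in liver, went from 5.86 to 7.10 on controls to 8.57 on PB 1 and 7.88 to 8.71 on PB 2 to 7, a rise of 1.82 ± 0.19 (adjusted p = 1.03e-05; with slide as a block 2.13, adjusted p = 0.0129). Of 16 heme synthesis genes tested, 10 rose and 0 fell, against 19.3% and 23.4% of all genes tested. PB 1 was above all controls for 5 of the 10. The median was 0.50, and 0.32 with slide as a block.

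Other P450 genes and their reductase changed less or with more spread. Por, the electron donor of microsomal P450 enzymes, spanned -0.55 to 2.90 on controls (median 0.95), and was 4.08 on PB 1 and 2.82 to 4.96 on PB 2 to 7. Its ranges met at the edge. The rise was 2.97 ± 0.46 (adjusted p = 0.000152), while with slide as a block the estimate was 3.01 ± 0.95 (adjusted p = 0.211). Cyp2c11, a male-predominant P450 enzyme of rat liver, rose by 0.59 ± 0.14 (adjusted p = 0.00312; adjusted p = 0.501 with slide as a block), in ranges that overlapped. Cyp3a2, also male-predominant, rose by 0.51 ± 0.11 (adjusted p = 0.00162; adjusted p = 0.522 with slide as a block), with ranges that touched. Cyp1a2, a target of the aryl hydrocarbon receptor, fell by 0.50 ± 0.14 (adjusted p = 0.00944; adjusted p = 0.521 with slide as a block), with an adjusted p of 0.304 under median centring.

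**Figure D2:**
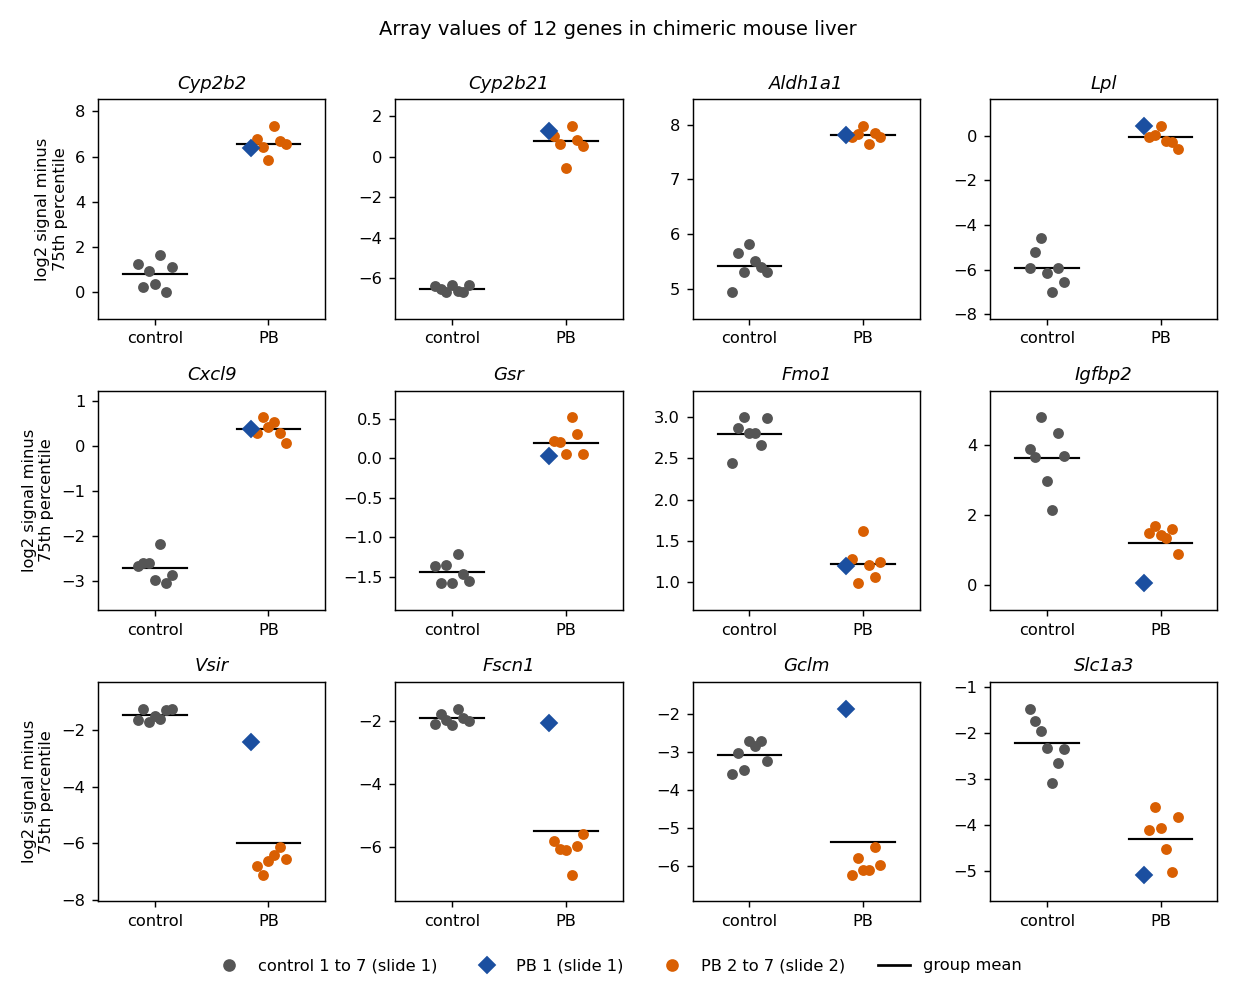
Level of 12 genes on each chimeric array (y axis, log2 signal minus the array's 75th percentile) by diet (x axis), each with its own scale. Circles are single arrays, the diamond is PB 1, and lines are group means of 7. PB 1 sits with PB 2 to 7 for Cyp2b2, Cyp2b21, Aldh1a1, Lpl, Cxcl9, Gsr and Fmo1, at or near the controls for Vsir and Fscn1, and above them for Gclm.

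More of the conjugation enzyme genes tested rose than fell on PB, while 19.3% of all genes tested rose and 23.4% fell. Of 19 glucuronosyltransferase, sulfotransferase and UDP-glucuronate supply genes tested, 11 rose and 2 fell (median 0.50), with 2 rises past the test under the slide block. Ugt2b1, a glucuronosyltransferase, ran from 5.24 to 5.95 on controls (median 5.67) and was 7.93 on PB 1 and 7.38 to 8.15 on PB 2 to 7. It rose by 2.32 ± 0.14 (adjusted p = 4.64e-08; with slide as a block 2.36, adjusted p = 0.000705). Ugt2b7, of the same family, was not well above background on any control (0 of 7) and was on all 7 PB arrays, at least 7.22-fold higher (adjusted p = 2.24e-07, and 0.000233 with slide as a block). Sult2a1, a sulfotransferase of steroids and bile acids, fell by 1.44 ± 0.42 (adjusted p = 0.0118; adjusted p = 0.511 with slide as a block), from 3.61 to 6.21 on controls to 2.99 on PB 1 and 2.22 to 4.49 on PB 2 to 7. Its arrays overlapped between diets.

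Glutathione transferases were higher or did not pass, with 11 of 22 tested higher and 0 lower (median 0.52), against 19.3% and 23.4% of all genes. PB 1 was above all controls for 7 of the 11 (12.6% of all genes tested). The list's mean shift was -0.42 to 0.51 on controls, 0.49 on PB 1 and 0.42 to 1.14 on PB 2 to 7, so PB 1 and the lowest of PB 2 to 7 lay among the controls. None of the 22 passed with slide as a block in limma. Gstm3, a mu class transferase, ran from -3.94 to -0.87 on controls (median -2.27) and was 1.42 on PB 1 and 0.82 to 2.69 on PB 2 to 7. It rose by 3.91 ± 0.43 (adjusted p = 1.36e-05), and with slide as a block its estimate was 3.82 ± 0.89 (adjusted p = 0.0597). Gstm1, of the same class, rose by 2.09 ± 0.32 (adjusted p = 0.000153), with PB 1 at 6.54 above the highest control at 5.73. Gsta4, an alpha class transferase for lipid peroxidation products, rose by 0.73 ± 0.13 (adjusted p = 0.000508), but PB 1 at 6.94 lay inside the control range of 6.53 to 7.04. Glutathione transferases include close paralogs that a probe may not separate.

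Among 11 carboxylesterases tested, 6 rose, each with PB 1 above all controls, and 1 fell (median 0.35). The shares over all genes tested were 19.3% and 23.4%, with PB 1 above all controls for 12.6%. Ces2c, of the drug-hydrolysing Ces2 family, ran from -0.87 to 0.16 on controls (median -0.35) and was 3.13 on PB 1 and 1.58 to 3.61 on PB 2 to 7. It rose by 3.31 ± 0.27 (adjusted p = 9.52e-07; with slide as a block 3.50, adjusted p = 0.00666). Ces2j, of the same family, rose by 2.86 ± 0.30 (adjusted p = 1.09e-05; with slide as a block 2.66, adjusted p = 0.0644). Ces1a was the member that fell, by 1.14 ± 0.30 (adjusted p = 0.00732). PB 1 at 0.55 was above every control (-0.40 to 0.21), while PB 2 to 7 lay at -1.90 to -1.35. With slide as a block its sign turned to 0.71 (adjusted p = 0.336).

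Aldehyde dehydrogenase and retinoid genes gave a mixed picture, with 5 of 21 higher and 4 lower (median 0.16), shares close to the 19.3% and 23.4% of all genes. Aldh1a1, which makes retinoic acid from retinal, ran from 4.94 to 5.81 on controls (median 5.40) and was 7.81 on PB 1 and 7.65 to 7.97 on PB 2 to 7. The PB arrays lay close together and well above the controls. It rose by 2.39 ± 0.12 (adjusted p = 9.04e-09; with slide as a block 2.40, adjusted p = 0.000214). Cyp26a1, the P450 that clears retinoic acid, spanned -1.87 to 0.98 on controls and was 2.31 on PB 1 and 1.60 to 4.07 on PB 2 to 7, a rise of 3.35 ± 0.45 (adjusted p = 6.43e-05; adjusted p = 0.262 with slide as a block).

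Of 20 drug and bile acid transporters tested, 7 rose and 1 fell (median 0.19), against 19.3% and 23.4% of all genes tested. With slide as a block the median of the list was -0.01, against -0.04 over all genes. Abcc2, the canalicular exporter of conjugates, ran from 4.14 to 5.02 on controls (median 4.51) and was 6.39 on PB 1 and 6.06 to 6.84 on PB 2 to 7. It rose by 1.82 ± 0.18 (adjusted p = 5.16e-06; with slide as a block 1.84, adjusted p = 0.0231). Abcc3, the basolateral exporter, was well above background on 5 of 7 controls and all PB arrays, and rose by 3.46 ± 0.37 (adjusted p = 1.08e-05; adjusted p = 0.0683 with slide as a block). Abcb1a, an efflux pump, rose by 0.83 ± 0.22 (adjusted p = 0.00795; with slide as a block 1.71, adjusted p = 0.0418), and PB 1 at -1.36 was the highest of the 14 arrays. Abcb4, the canalicular phospholipid transporter, fell by 0.65 ± 0.19 (adjusted p = 0.011; 0.293 with slide as a block and 0.117 under median centring).

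NRF2 responsive genes were higher as a group. NRF2 is the transcription factor of the antioxidant response, and it binds DNA together with small Maf proteins at antioxidant response elements. Of 31 such genes tested, 22 rose and 1 fell, and for 20 of the 22 PB 1 was above all controls. Among all genes tested, 19.3% rose, 23.4% fell and 12.6% had PB 1 above all controls. The median was 0.96 against 0.06 over all genes tested, and 0.73 with slide as a block, where 6 rose and 0 fell. Ephx1, Akr7a3, Gsta4 and Gstm1 belong to this list too. Its mean shift was -0.13 to 0.26 on controls, 0.87 on PB 1 and 1.02 to 1.13 on PB 2 to 7, with no overlap.

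The core of an antioxidant response element, TGACNNNGC on either strand (N is any base), was searched in RefSeq promoters of build GRCr8, from 250 bases before to 50 after a gene's start. It was present in 4038 of 33469 promoters (12.1%) and in 1094 of the 7358 promoters that matched a tested gene (14.9%). Of the 31 NRF2 list genes tested, 24 had a promoter there, and 8 of these held the core (33.3%). Among those that rose it was 5 of 17 (29.4%), and in the P450 and partner list 1 of 31 (3.23%). The 250 bases before the start are shown for the 4 holders of this list with the largest changes, with the core in capitals. Gsta3 is named because it was seen to hold the core. The core begins at base -13 of Gpx2, -167 of Me1, -17 of Gsta3 and -172 of Gclm, counted from the gene's start. A match describes the letters and is not a binding site.
Gpx2, chr6:101230034-101230283, minus strand: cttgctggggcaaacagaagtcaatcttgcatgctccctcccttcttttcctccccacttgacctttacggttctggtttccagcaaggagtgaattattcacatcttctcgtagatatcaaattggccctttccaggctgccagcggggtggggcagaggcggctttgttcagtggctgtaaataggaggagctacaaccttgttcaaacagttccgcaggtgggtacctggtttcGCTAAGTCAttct
Me1, chr8:96540245-96540494, minus strand: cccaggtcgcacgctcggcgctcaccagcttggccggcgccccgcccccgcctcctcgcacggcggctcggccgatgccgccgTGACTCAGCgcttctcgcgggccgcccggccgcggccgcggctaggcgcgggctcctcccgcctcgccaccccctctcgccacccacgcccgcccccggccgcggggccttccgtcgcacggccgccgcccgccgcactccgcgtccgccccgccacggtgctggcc
Gsta3, chr9:31154739-31154988, plus strand: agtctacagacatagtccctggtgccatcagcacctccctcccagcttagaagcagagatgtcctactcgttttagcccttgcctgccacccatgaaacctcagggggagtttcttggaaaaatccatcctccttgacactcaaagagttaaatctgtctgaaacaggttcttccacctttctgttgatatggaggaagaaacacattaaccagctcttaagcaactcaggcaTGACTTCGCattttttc
Gclm, chr2:213031885-213032134, plus strand: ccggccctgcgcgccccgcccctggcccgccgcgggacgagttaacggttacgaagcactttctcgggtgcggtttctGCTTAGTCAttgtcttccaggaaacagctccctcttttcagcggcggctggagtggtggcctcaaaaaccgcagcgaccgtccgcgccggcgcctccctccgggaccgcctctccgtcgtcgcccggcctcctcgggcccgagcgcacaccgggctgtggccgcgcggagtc

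These 4 holders of the core did not share a size or direction. Gpx2, a glutathione peroxidase, ran from -0.28 to 0.69 on controls (median 0.30) and was 3.14 on PB 1 and 2.80 to 4.14 on PB 2 to 7. It rose by 3.22 ± 0.23 (adjusted p = 3.01e-07; with slide as a block 2.90, adjusted p = 0.00744). Me1, the cytosolic malic enzyme that makes NADPH, ran from 1.0 to 1.67 on controls and was 3.22 on PB 1 and 3.04 to 4.53 on PB 2 to 7, a rise of 2.53 ± 0.23 (adjusted p = 2.24e-06; with slide as a block 1.94, adjusted p = 0.0457). Gsta3, an alpha class transferase, rose by 1.11 (adjusted p = 0.00047). Gclm, the modifier subunit of the rate-limiting enzyme of glutathione synthesis, went opposite ways on the 2 slides. PB 1 at -1.86 was above every control (-3.59 to -2.70), and PB 2 to 7 lay at -6.24 to -5.49, not well above background. It counted as a fall (-2.29 ± 0.54, adjusted p = 0.00334; 0.157 under normexp), and with slide as a block its estimate was 1.22 (adjusted p = 0.128).

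Further NRF2 list genes rose as well. Gsr, glutathione reductase, ran from -1.59 to -1.22 on controls (median -1.47) and was 0.03 on PB 1 and 0.05 to 0.52 on PB 2 to 7, with no overlap. It rose by 1.65 ± 0.10 (adjusted p = 6.89e-08; with slide as a block 1.47, adjusted p = 0.0017). Nqo1, a quinone reductase, rose by 1.08 ± 0.22 (adjusted p = 0.00133; adjusted p = 0.496 with slide as a block), and Hmox1, heme oxygenase, by 1.48 ± 0.31 (adjusted p = 0.00135; adjusted p = 0.454 with slide as a block). Both had PB 1 above all controls. Blvrb, biliverdin reductase B, rose by 1.12 ± 0.12 (adjusted p = 1.03e-05; adjusted p = 0.137 with slide as a block), with PB 1 at 5.79 between the highest control at 5.41 and the lowest of PB 2 to 7 at 6.19.

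Lpl had one of the largest rises outside the drug metabolism genes. It encodes lipoprotein lipase, which releases fatty acids from triglyceride-rich lipoproteins and is low in adult liver. Lpl was not well above background on any of the 7 controls (-7.01 to -4.60, median -5.94). On PB it was well above background on all 7 arrays, at 0.41 on PB 1 and -0.61 to 0.42 on PB 2 to 7. The signal was at least 41.1-fold higher on PB (adjusted p = 9.83e-09, and 0.00013 with slide as a block).

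Of 25 lipogenesis genes tested, 13 rose and 1 fell (median 0.53), against 19.3% and 23.4% of all genes tested. PB 1 was above all controls for 6 of the 13 (12.6% of all genes tested). The list's mean shift was -0.22 to 0.24 on controls, 0.11 on PB 1 and 0.50 to 0.77 on PB 2 to 7, so PB 1 lay among the controls. Thrsp, a lipogenic regulator, rose by 1.83 ± 0.42 (adjusted p = 0.00242; adjusted p = 0.481 with slide as a block). Elovl6, a fatty acid elongase, rose by 1.85 ± 0.33 (adjusted p = 0.000482; adjusted p = 0.661 with slide as a block). Neither had an overlap between diets.

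**Figure D3:**
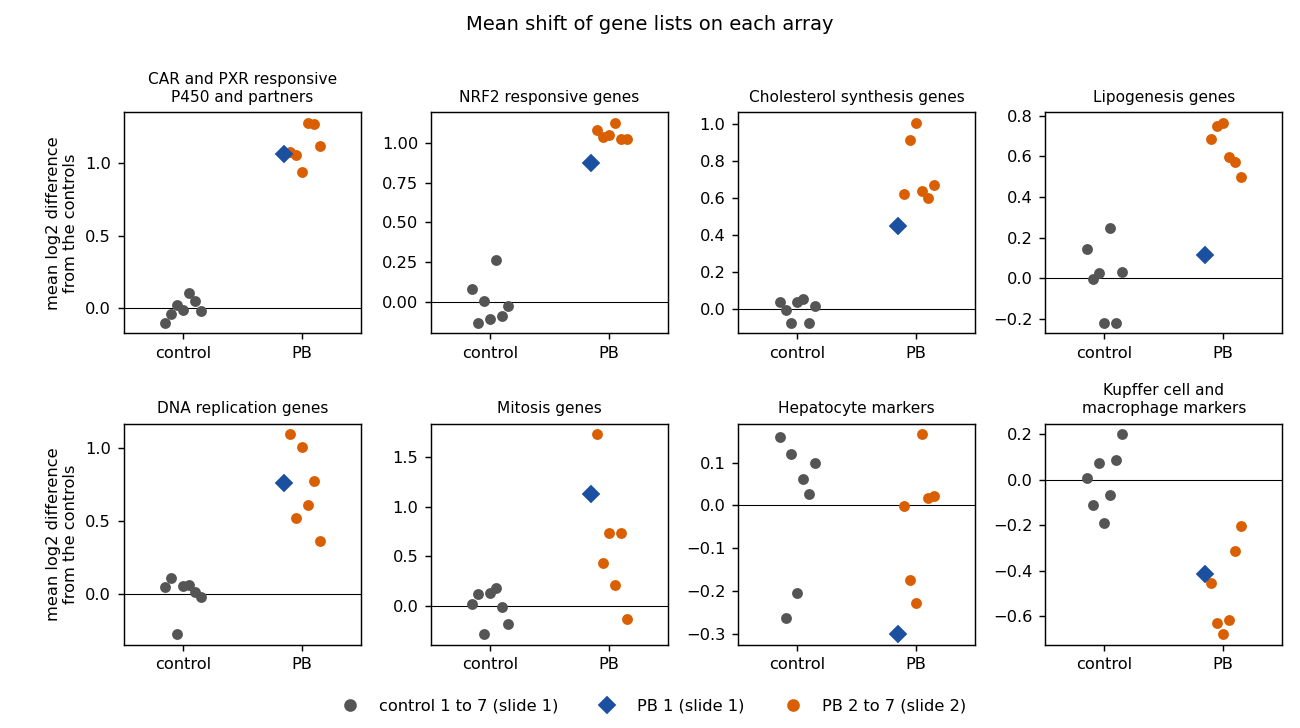
Mean log2 difference from the controls over the tested genes of 8 gene lists (y axis) for each chimeric array, by diet (x axis). Circles are single arrays and the diamond is PB 1. PB 1 is above all controls for the P450, NRF2, cholesterol, DNA replication and mitosis lists, lies among the controls for lipogenesis genes, and is below them for hepatocyte and Kupffer cell markers.

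Cholesterol synthesis genes, most of them targets of the sterol regulator SREBP2, moved one way. Of 26 tested, 18 rose and 0 fell, against 19.3% and 23.4% of all genes tested. For 11 of the 18 PB 1 was above all controls (12.6% of all genes tested). The median was 0.82 against 0.06 over all genes, and 0.40 with slide as a block, where none of the 26 passed in limma. Msmo1, a sterol oxidase, ran from 6.87 to 7.54 on controls and was 8.24 on PB 1 and 8.17 to 8.98 on PB 2 to 7, a rise of 1.28 ± 0.15 (adjusted p = 2.8e-05; with slide as a block 1.08, adjusted p = 0.143). Mvd, a decarboxylase of the same pathway, rose by 1.33 ± 0.21 (adjusted p = 0.000183; adjusted p = 0.491 with slide as a block).

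Targets of PPAR-alpha, the receptor for fatty acids, split. Of 47 tested genes of the PPAR-alpha and fat oxidation list, 11 rose and 4 fell (median 0.10), against 19.3% and 23.4% of all genes tested. PB 1 was above all controls for 4 of the 11. The list's mean shift was -0.06 to 0.12 on controls, -0.28 on PB 1 and -0.12 to 0.21 on PB 2 to 7, so PB 1 lay below all controls. The fatty acid hydroxylases Cyp4a1, Cyp4a2 and Cyp4a3 fell, and they are close paralogs. Cyp4a2 ran from 7.15 to 7.75 on controls and was 5.85 on PB 1 and 5.95 to 6.95 on PB 2 to 7, a change of -1.13 ± 0.19 (adjusted p = 0.000244; with slide as a block -1.62, adjusted p = 0.0408). Cyp4a3 changed by -0.90 ± 0.12 (adjusted p = 6.73e-05; adjusted p = 0.0883 with slide as a block), again with PB 1 below all controls. The Cyp4a1 change of -0.85 (adjusted p = 0.013; adjusted p = 0.12 with slide as a block) had an adjusted p of 0.105 under median centring and 0.059 without control 2, control 4 and PB 4. Acaa1b, a peroxisomal thiolase, rose by 1.1 ± 0.13 (adjusted p = 3.5e-05; adjusted p = 0.279 with slide as a block), and for Cpt1a, the entry enzyme of mitochondrial oxidation, the change was 0.01 ± 0.23 (adjusted p = 0.986).

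More of the cell cycle genes tested rose than fell on PB, with a wide spread between animals. Of 26 DNA replication genes tested (38 on the array) 18 rose and 1 fell (median 0.54). Of 19 mitosis genes tested (33 on the array) 11 rose and 2 fell (median 0.64). Over all genes tested, 19.3% rose and 23.4% fell. A gene could enter the test by being well above background on PB arrays alone, which favours rises among dim genes. PB 1 was above all controls for 13 of the 18 and 11 of the 11 (12.6% of all genes tested). With slide as a block the medians were 0.54 and 0.80, with 1 replication gene and 0 mitosis genes past the test in limma. The mitosis list's mean shift was -0.28 to 0.18 on controls, 1.12 on PB 1 and -0.13 to 1.73 on PB 2 to 7, so at least 1 PB array lay among the controls. For replication genes the mean shift was -0.28 to 0.11 on controls, 0.76 on PB 1 and 0.36 to 1.1 on PB 2 to 7, with no overlap.

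Rrm2, the small subunit of ribonucleotide reductase, was well above background on 4 of 7 controls (-6.08 to -1.40) and all PB arrays, at 0.40 on PB 1 and -3.34 to 2.51 on PB 2 to 7. It rose by 3.17 ± 0.84 (adjusted p = 0.00675), in overlapping ranges. Cdk1, the mitotic kinase, ran from -3.17 to -1.73 on controls and was -0.07 on PB 1 and -1.99 to 1.43 on PB 2 to 7, a rise of 2.05 ± 0.40 (adjusted p = 0.000854) in overlapping ranges. Ccne1, cyclin E1, rose by 2.05 ± 0.40 (adjusted p = 0.000808), and Gins1, of the replicative helicase, by 1.58 ± 0.23 (adjusted p = 0.000111), the latter with no overlap between diets. Spc25, a kinetochore protein, was well above background on 2 of 7 controls and 6 of 7 PB arrays and rose by 2.39 ± 0.49 (adjusted p = 0.00124). The 5 genes had adjusted p from 0.16 to 0.441 with slide as a block.

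Members that fell were Mcm10, a replication initiation factor (-1.02, adjusted p = 0.0177; 0.0727 under median centring and 0.0508 without control 2, control 4 and PB 4), and Ccnf, cyclin F (-1.85 ± 0.27, adjusted p = 0.000106). PB 1 at 0.43 lay just below the controls of Ccnf (0.56 to 1.25) and PB 2 to 7 at -1.95 to -0.84. Ccnd1, cyclin D1, had a change of 0.47 ± 0.23 (adjusted p = 0.116, and 0.00607 under median centring). Gadd45b, a stress gene that CAR activators are known to raise, rose by 1.59 ± 0.42 (adjusted p = 0.00648), and its relative Gadd45a by 1.68 ± 0.29 (adjusted p = 0.000363), with PB 1 inside the control range for Gadd45a. Cdkn1a, the p21 inhibitor of the cell cycle, fell by 0.82 ± 0.15 (adjusted p = 0.000627), and PB 1 at 5.97 was just below the lowest control at 6.10. Another probe of Cdkn1a gave -1.72. With slide as a block the calls of Mcm10, Ccnf, Gadd45b, Gadd45a and Cdkn1a were lost, with adjusted p from 0.522 for Mcm10 to 0.77 for Cdkn1a.

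Several genes outside the drug metabolism lists were higher on PB 1 and on PB 2 to 7 alike. Zdhhc2, a palmitoyl transferase, ran from -3.71 to -2.68 on controls (median -3.36) and was 0.43 on PB 1 and 0.17 to 1.28 on PB 2 to 7, with no overlap. It rose by 3.86 ± 0.21 (adjusted p = 1.15e-08; with slide as a block 3.77, adjusted p = 0.00038). A1bg, a plasma glycoprotein, was well above background on 1 of 7 controls and all PB arrays, and rose by 3.25 ± 0.29 (adjusted p = 2.18e-06; adjusted p = 0.0196 with slide as a block). Fbxo27, an F-box protein that binds glycoproteins, was well above background on 2 of 7 controls and all PB arrays, and rose by 3.20 ± 0.34 (adjusted p = 1.11e-05; adjusted p = 0.0515 with slide as a block). The sizes of both rises are fitted to control signals that were mostly not well above background.

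Cxcl9, a chemokine induced by interferon-gamma, ran from -3.05 to -2.17 on controls (median -2.66) and was 0.38 on PB 1 and 0.05 to 0.63 on PB 2 to 7. It rose by 3.07 ± 0.14 (adjusted p = 2.13e-09; with slide as a block 3.08, adjusted p = 6.41e-05). Of 32 interferon responsive genes tested, 5 rose and 5 fell, below the 19.3% and 23.4% of all genes, the median was 0.11, and 1 passed with slide as a block. App, the amyloid precursor protein gene, was singled out after its values were seen for its small spread. It ran from 0.92 to 1.40 on controls and was 4.22 on PB 1 and 4.03 to 4.36 on PB 2 to 7, a rise of 3.14 ± 0.11 (adjusted p = 4.85e-11; with slide as a block 3.11, adjusted p = 2.54e-06).

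The named falls that also passed with slide as a block include genes of growth factor binding, transport and flavin oxygenation. Igfbp2, which binds insulin-like growth factors, ran from 2.15 to 4.79 on controls (median 3.68) and was 0.04 on PB 1 and 0.90 to 1.68 on PB 2 to 7. PB 1 was the lowest of the 14 arrays. It fell by 2.43 ± 0.36 (adjusted p = 0.000113; with slide as a block -3.60, adjusted p = 0.0138). Another probe of Igfbp2 gave -2.21 over all arrays and -3.53 for PB 1. Fmo1, a flavin-containing monooxygenase, ran from 2.44 to 2.99 on controls and was 1.19 on PB 1 and 0.99 to 1.62 on PB 2 to 7. The fall was -1.57 ± 0.12 (adjusted p = 4e-07; with slide as a block -1.60, adjusted p = 0.0037).

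Dio3, the deiodinase that inactivates thyroid hormone, ran from -1.2 to 0.22 on controls and was -3.34 on PB 1 and -2.70 to -1.26 on PB 2 to 7, a change of -1.88 ± 0.30 (adjusted p = 0.000204; with slide as a block -2.91, adjusted p = 0.0166). Slc1a3, a glutamate transporter, was well above background on all controls and 5 of 7 PB arrays and fell by 2.10 ± 0.28 (adjusted p = 5.66e-05; adjusted p = 0.0147 with slide as a block). Elf5, an ETS factor, was well above background on all controls and 4 of 7 PB arrays and fell by 1.62 ± 0.14 (adjusted p = 1.75e-06; adjusted p = 0.0013 with slide as a block). Inhbb, the inhibin beta-B subunit, fell by 1.56 ± 0.13 (adjusted p = 1.32e-06; adjusted p = 0.0231 with slide as a block), while another probe of Inhbb, well above background on all arrays, gave -0.56 over all arrays and -0.94 for PB 1. Abcc9, a subunit of ATP-sensitive potassium channels, fell by 1.31 ± 0.14 (adjusted p = 1.42e-05; adjusted p = 0.0394 with slide as a block). Krt80, a keratin, passed both fits but lay at different levels on the 2 slides. It ran from 0.02 to 0.45 on controls and was -0.83 on PB 1 and -2.54 to -2.01 on PB 2 to 7.

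The 12 largest falls without the block were of another kind. Vsir, an immune checkpoint receptor, ran from -1.71 to -1.25 on controls and was -2.41 on PB 1 and -7.10 to -6.11 on PB 2 to 7, a change of -4.53 ± 0.55 (adjusted p = 3.16e-05). It was well above background on 7 of 7 controls and, among PB arrays, on PB 1 alone. Id3, an inhibitor of basic helix-loop-helix factors, was -2.21 on PB 1, inside the controls (-2.62 to -1.11), and -6.52 to -5.43 on PB 2 to 7. Fscn1, an actin-bundling protein, was -2.04 on PB 1, inside the controls (-2.11 to -1.61), and -6.87 to -5.59 on PB 2 to 7. RT1-Da, of the class II major histocompatibility complex, Gzmb, a granzyme of cytotoxic lymphocytes, and Tlr12, a Toll-like receptor, also had PB 1 as the only PB array well above background.

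None of the 12 passed with slide as a block in limma (adjusted p from 0.14 for Apol7b to 0.97 for Fscn1). The term for slide 2, which contrasts PB 2 to 7 with PB 1, was past the threshold for 1207 genes (8.36%), negative for 1105 of them (7.65%), and 1058 of the 3374 falls were among them. Of the 12 it was past the threshold for 9, with Hrh4, a histamine receptor, Lrg1, a secreted acute phase glycoprotein, and Cldn1, a tight junction protein, as the exceptions. For such genes diet and slide cannot be told apart beyond the value of PB 1. Other probes of the same genes were looked at after the values were seen. Of 366 named genes with a negative slide term past the threshold, 18 had another probe well above background on all 14 arrays. For 10 of these the probe used had a slide term of at least 2-fold. Their median slide term was -1.17 for the probe used and -0.18 for the other probe, which was at least 2-fold lower on slide 2 for 2 of the 10. The genes were picked by the slide term of the probe used. That choice by itself favours a smaller term for the other probe, so the 2 medians do not tell a cause. Apol7b (-3.0 ± 0.32, adjusted p = 1.09e-05) had another probe at 0.96, which was well above background on 5 of 7 controls and so is not among the 18. Tgfa, a growth factor (-0.93 ± 0.20, adjusted p = 0.00147), had one at 0.23, and Nr3c1, the glucocorticoid receptor (-1.12 ± 0.18, adjusted p = 0.000203), one at 0.01.

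Hepatocyte identity was checked on 21 markers, all of them well above background on every chimeric array. Their summed signal, in units of the 75th percentile, was 4904 to 5462 on controls, 3896 on PB 1, 3943 to 5174 on PB 2 to 7 and 4964 to 5289 in SD controls. Of the 21, 1 rose and 5 fell (median -0.10, and 0.18 under median centring, which turned the sign). Over all genes tested 23.4% fell. Alb, albumin, fell by 0.36 ± 0.12 (adjusted p = 0.0248; adjusted p = 0.79 with slide as a block). That call was lost under median centring (adjusted p = 0.681), without control 2, control 4 and PB 4 (0.077), and when control 2, PB 3 or PB 5 alone was left out (adjusted p up to 0.0557). F9, coagulation factor IX, fell by 0.68 ± 0.10 (adjusted p = 0.000155; adjusted p = 0.157 with slide as a block), with no overlap between diets. Afp, the fetal alpha-fetoprotein, ran from 4.48 to 5.13 on controls and 4.55 to 5.10 on PB arrays, with a change of -0.14 ± 0.13 (adjusted p = 0.391).

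Liver zone genes are given beside the shares over all genes tested, of which 19.3% rose and 23.4% fell. Of 25 periportal genes 0 rose and 4 fell (median -0.16; under median centring 3 rose, 1 fell and the median was 0.13). Of 13 pericentral genes 2 rose and 4 fell (median -0.34; under median centring 3 rose, 2 fell and the median was -0.06). Hal, histidine ammonia lyase, ran from 6.17 to 7.35 on controls and was 5.28 on PB 1 and 5.35 to 6.10 on PB 2 to 7, a change of -0.96 ± 0.19 (adjusted p = 0.000813; adjusted p = 0.0942 with slide as a block). Glul, the pericentral glutamine synthetase, ran from 1.78 to 3.17 on controls and was 1.75 on PB 1 and 0.09 to 1.71 on PB 2 to 7, a change of -1.78 ± 0.28 (adjusted p = 0.000165; adjusted p = 0.569 with slide as a block). Rgn, regucalcin, fell by 0.88 ± 0.16 (adjusted p = 0.000588; adjusted p = 0.336 with slide as a block). Oat, ornithine aminotransferase (-0.86, adjusted p = 0.0134), and Cps1, the entry enzyme of the urea cycle (-0.57, adjusted p = 0.00797), had adjusted p of 0.102 and 0.175 under median centring and 0.262 and 0.295 with slide as a block.

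Markers of Kupffer cells and macrophages, cells whose species was not tested here, were lower on PB. Of 14 tested (21 on the array), 0 rose and 8 fell, each of the 8 with PB 1 below all controls, and none passed with slide as a block in limma. Among all genes tested, 23.4% fell and 22.4% had PB 1 below all 7 controls. Under median centring 3 of the 14 markers fell. Their summed signal was 95.6 to 122 on controls, 84.8 on PB 1, 67.3 to 102 on PB 2 to 7 and 142 to 167 in SD controls, and Aif1, Itgb2 and Marco were not well above background on any chimeric array. Clec4f, the Kupffer cell lectin, ran from 2.91 to 3.40 on controls and was 2.63 on PB 1 and 1.81 to 2.47 on PB 2 to 7, a change of -0.96 ± 0.14 (adjusted p = 8.62e-05). Cd68, a lysosomal macrophage protein, fell by 1.38 ± 0.15 (adjusted p = 1.52e-05).

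Of 5 T, NK and B cell markers tested (17 on the array), 4 fell (2 under median centring), Gzmb and Gzma among them. The share of all genes tested that fell was 23.4%, for comparison with each count of falls here. Not well above background on any chimeric array were 9 of the 17, namely Cd2, Cd247, Cd3e, Cd3g, Cd4, Cd5, Cd8a, Klrd1 and Lck. Cd3d, of the T cell receptor complex, fell by 0.67 ± 0.17 (adjusted p = 0.00495), but PB 1 at -0.88 lay inside the controls (-1.13 to -0.59) and the estimate with slide as a block was 0.04. The sum of these markers was 3.78 to 6.01 on controls, 4.24 on PB 1 and 2.61 to 4.1 on PB 2 to 7. Endothelial markers summed to 18.1 to 26.4 on controls, 17.9 on PB 1 and 16.1 to 21.4 on PB 2 to 7, with 2 of 7 tested lower, Cdh5, a cadherin, among them (-0.55, adjusted p = 0.00108; 0.678 with slide as a block and 0.116 under median centring). Under median centring 2 of the 7 endothelial markers rose and 0 fell, with a median of 0.13 in place of -0.16. Stellate cell and fibroblast markers summed to 6.89 to 10.3 on controls, 8.07 on PB 1 and 6.26 to 9.79 on PB 2 to 7, against 29.6 to 39.4 in SD controls. Their part in the falls of other genes was not tested.

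**Figure D4:**
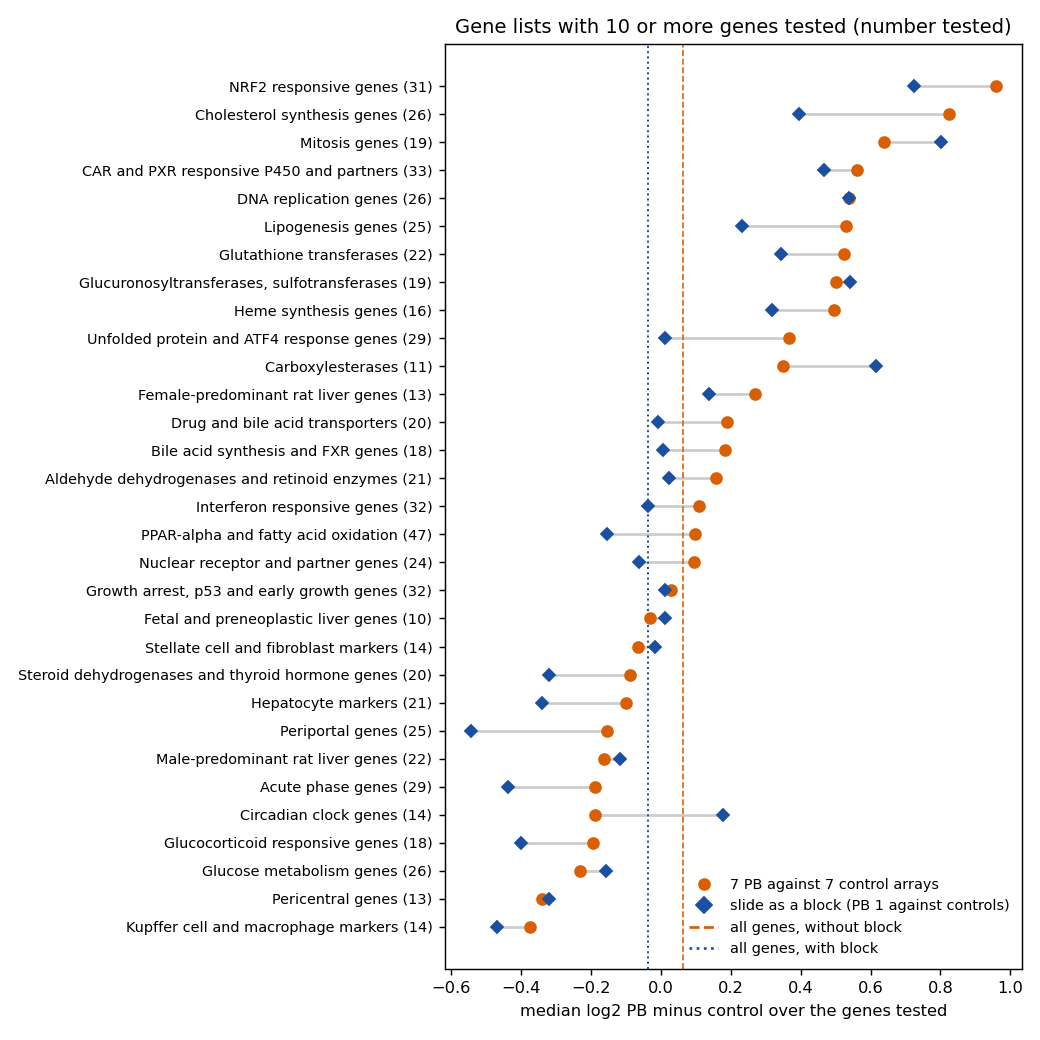
Median log2 PB minus control (x axis) over the tested genes of each list with 10 or more genes tested (y axis, number tested in brackets). Circles are the fit of 7 PB against 7 control arrays and diamonds the fit with slide as a block, and the vertical lines are the medians of all genes at 0.06 and -0.04. Without the block, NRF2 responsive genes are highest at 0.96 and Kupffer cell markers lowest at -0.37.

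The genes of the receptors that sense PB did not pass the test. Nr1i3, which encodes CAR, ran from 0.98 to 2.02 on controls and 0.85 to 1.86 on PB arrays, with a change of -0.14 ± 0.18 (adjusted p = 0.571). Nr1i2, which encodes PXR, had a change of 0.20 ± 0.19 (adjusted p = 0.408). Ahr, the aryl hydrocarbon receptor, ran from -3.89 to -3.18 on controls and was -2.52 on PB 1 and -2.53 to -1.77 on PB 2 to 7, a rise of 1.33 ± 0.15 (adjusted p = 1.65e-05; with slide as a block 1.03, adjusted p = 0.141). Cyp7a1, the rate-limiting enzyme of bile acid synthesis, spanned -0.15 to 3.20 on controls and -1.58 to 2.61 on PB arrays (change 0.26 ± 0.66, adjusted p = 0.772).

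Clock genes differed widely between animals of 1 diet. Dbp, a clock output factor, spanned 0.57 to 5.53 on controls and 0.89 to 7.31 on PB arrays, with a change of 3.03 ± 0.91 (adjusted p = 0.0138). Bmal1, a core activator of the clock, spanned -1.74 to 2.05 and -3.34 to 1.77, with a change of -2.44 ± 0.80 (adjusted p = 0.0219). Both passed in overlapping ranges and did not pass without control 2, control 4 and PB 4 (adjusted p = 0.0521 and 0.118). The sources used here do not give the hour of sampling. The metallothioneins Mt1 and Mt2A, which bind zinc and respond to glucocorticoids, fell by 0.90 ± 0.28 (adjusted p = 0.0183) and 1.30 ± 0.47 (adjusted p = 0.035), also in overlapping ranges, and neither passed without the same 3 arrays (adjusted p = 0.113 and 0.148). With slide as a block none of the 4 genes passed in limma (adjusted p from 0.413 for Bmal1 to 0.539 for Mt2A). The Mt2A call was also lost without control 2, 3, 6 or 7 or PB 1, 2 or 4 (adjusted p up to 0.0733).

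The PB response of chimeric mice was set against that of SD rats in a fit of all 30 arrays. Of 17255 genes tested, 3254 differed in response (18.9%), 1085 higher in chimeric mice (6.29%) and 2169 lower (12.6%), and 32 did so with slide as a block (0.185%), where the chimeric response rests on PB 1. Cyp3a23-3a1 rose by 2.10 ± 0.18 in SD rats, and the difference of responses was -0.19 (adjusted p = 0.608). Cyp2b2 rose by 4.03 ± 0.28 in SD rats, less than in chimeric mice by 1.77 (adjusted p = 0.000892; 0.324 with slide as a block). Aldh1a1 rose by 4.37 ± 0.35 in SD rats, more than in chimeric mice, with a difference of -1.98 (adjusted p = 0.00214; 0.322 with the block). Abcc2 differed by 1.07 (adjusted p = 0.00596; 0.406 with the block).

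Some differences from SD rats depended on settings. Gsr differed by 0.58 (adjusted p = 0.0103; 0.0891 under quantile normalization and 0.0887 under normexp). Ephx1 differed by 1.11 (adjusted p = 0.0327; 0.131 and 0.0601), and its call was lost without chimeric PB 5, SD control 2 or 4, or SD PB 1 or 4 (adjusted p up to 0.0787). Abcc3 differed by -1.64 (adjusted p = 0.0338), and by -1.17 with the SD controls, none of them well above background, set at the detection floor. Its call was lost without chimeric control 1, 5 or 7, SD control 3 or 4, or any 1 of the 4 SD PB arrays (adjusted p up to 0.0842).

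Lpl differed most among these genes, by 4.67 in the fit of measured signals, which gave the adjusted p below. Its change in SD rats was 1.2 ± 0.36 (adjusted p = 0.139), and the difference of responses, with chimeric controls at the detection floor, was at least 4.17 (adjusted p = 1.51e-06, and 0.00016 with slide as a block). Zdhhc2 rose by 1.5 in SD rats, a difference of 2.36 (adjusted p = 2.58e-05, and 0.0134 with the block). Cxcl9 rose by 1.61 in SD rats, a difference of 1.45 (adjusted p = 0.000826; 0.201 with the block and 0.0937 under normexp). Tor4a, a torsin ATPase singled out after its values were seen, was well above background on 0 of 7 chimeric controls and 6 of 7 chimeric PB arrays. Its change was -0.03 in SD rats, and the difference was at least 1.78 (adjusted p = 5.22e-05, and 0.00119 with the block).

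Among the falls, Fmo1 fell in SD rats too, by 1.67 (adjusted p = 0.000315), with a difference of 0.10 (adjusted p = 0.862). Igfbp2 had a change of 0.09 ± 0.49 in SD rats, and the responses differed by -2.52 (adjusted p = 0.00503; 0.0655 with the block). For Inhbb the difference was -1.32 (adjusted p = 7.96e-05; 0.0797 with the block), from the probe with the larger fall, and for Elf5 -1.34 (adjusted p = 0.000533; 0.0225 with the block and 0.268 under normexp). Elf5 was well above background on 0 of 4 SD PB arrays, so its fall in SD rats is only a lower bound and the size of this difference is not settled. Gnmt, glycine N-methyltransferase, was singled out after its values were seen. It ran from 6.42 to 7.19 on chimeric controls and was 4.89 on PB 1 and 5.58 to 6.20 on PB 2 to 7, a change of -1.26 ± 0.18 (adjusted p = 8e-05; with slide as a block -2.05, adjusted p = 0.00108).

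Against CAR KO rats, 3320 of 17685 genes differed in response (18.8%) and 188 with slide as a block (1.06%). In CAR KO rats the change was -0.09 ± 0.28 for Cyp2b2, 0.03 ± 0.18 for Cyp3a23-3a1, -0.13 ± 0.36 for Lpl, -0.13 ± 0.22 for Cxcl9, 0.41 ± 0.23 for Zdhhc2, 0.18 ± 0.13 for Gsr and 0.67 ± 0.35 for Aldh1a1, each with an adjusted p of 0.952 or above. Each of the 7 responses was larger in chimeric mice. The difference was 5.89 for Cyp2b2 (adjusted p = 1.18e-11), 1.88 for Cyp3a23-3a1 (6.12e-06), 3.20 for Cxcl9 (2.15e-08), 3.45 for Zdhhc2 (1.56e-08) and 1.47 for Gsr (9.59e-07). For Lpl it was at least 5.49 (1.91e-09). These 6 also passed with slide as a block, while Aldh1a1 (1.72, adjusted p = 0.00647) had an adjusted p of 0.254. The comparisons with SD and CAR KO rats share the chimeric arrays.

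**Figure D5:**
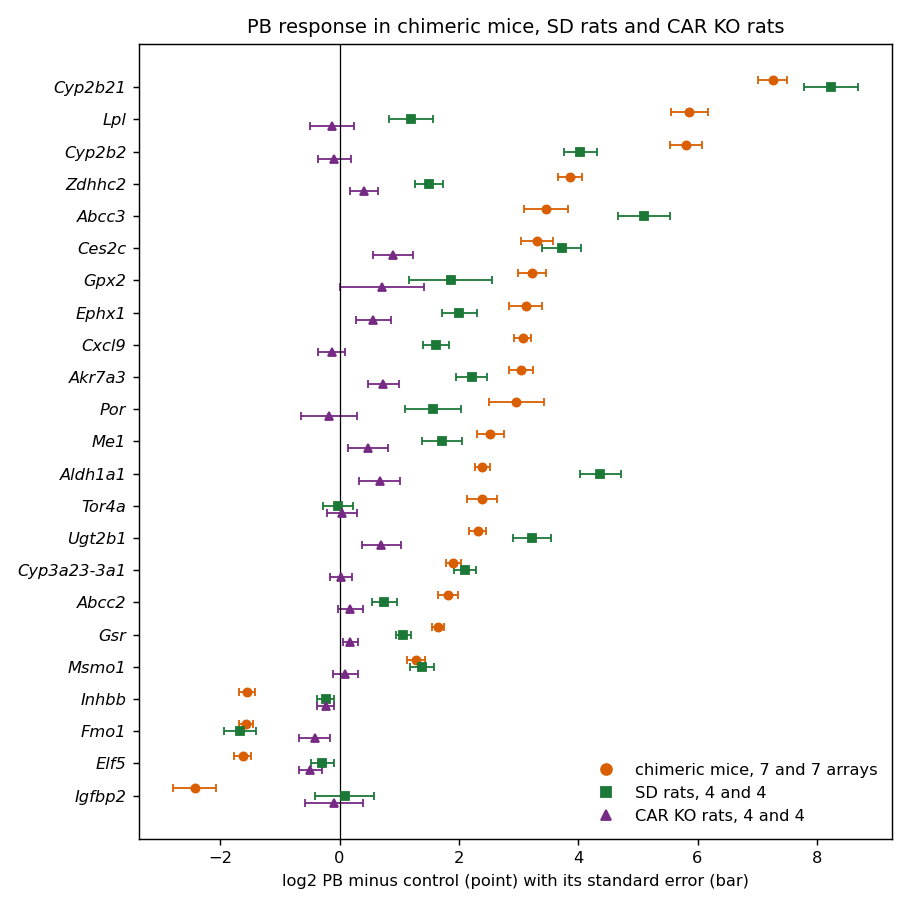
Log2 PB minus control (x axis, point with its standard error) for genes compared between models (y axis) in chimeric mice, SD rats and CAR KO rats. A model in which the gene was not tested has no point. Lpl, Zdhhc2 and Cxcl9 lie farther right in chimeric mice than in SD rats, and Aldh1a1 lies farther left.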

How the data were processed

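Liver RNA (100 ng per array, Cy3) was measured on one-colour Agilent arrays of design 028279, per the file headers. The deposited files hold the scanner's processed intensity per spot, which the authors made with Agilent Feature Extraction 10.7.3.1 (protocol GE1_107_Sep09), per the file headers. The authors' deposited series matrix holds log2 values of the same arrays and was used as an alternative. Here log2 of the processed signal was taken, spots flagged as outliers were set missing, and the remaining spots of a probe were averaged. The array's 75th percentile over 30367 non-control probes was then subtracted. No spot was saturated (0). Names came from the RefSeq GRCr8 table, which matched 18004 probes to 15170 symbols and left 12363 unnamed. Of several probes of a gene, that with the highest mean level in SD and CAR KO rats was taken. Genes well above background on at least 75% of arrays of 1 group were tested with limma 3.58.1 (R 4.3.3, lmFit and eBayes, Benjamini-Hochberg) at an adjusted p of 0.05, and the script was tested on simulated data.

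Named genes were the 12 largest rises and 12 falls, the 8 and 8 largest also past the slide block, up to 3 per direction of each of 38 gene lists, and 34 preset genes. Some results of this rule are not reported here. The members and lists were chosen with earlier results of these data known. Alternatives were slide as a block, random block or within 1 slide, the replicate block, normexp (on median signals and median background, offset 50, the files used here having no mean signal column), quantile and median scaling, filters, a trended spread, array weights, another probe rule and leaving out arrays. Cyp1a1 was on the array but not tested.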

Additional observations from a re-analysis of the deposited data

Results flagged for a closer look

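Among 220 groups of 7 arrays, formed by the 110 named genes and both diets, 23 held an array that stood apart from the rest by Dixon's ratio, the gap to the nearest array over the group's whole range. Chance alone marks about 1 in 20 groups. In 11 of the 23 the array was PB 1, the only PB array on the slide of the controls. Of these, PB 1 was the highest of its group for Gclm (ratio 0.83), Vsir (0.789), Ces1a (0.775), Id3 (0.746), Fscn1 (0.735), Tgfa (0.728), Krt80 (0.687), RT1-Da (0.643), Apol7b (0.613) and Oxnad1 (0.577), and the lowest for Blvrb (0.579).

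Other PB arrays stood apart for single genes. PB 5 was the lowest for Ugt2b1 (0.57) and the highest for Thrsp (0.622) and Cps1 (0.629). PB 4 was the lowest for Ces2c (0.572) and Fbxo27 (0.591), PB 3 was the lowest for Inhbb (0.58), and PB 2 was the highest for Npas2, a clock factor (0.66). Among controls, control 6 was the lowest for Bmal1 (0.747) and Cldn1 (0.73). Control 4 was the lowest for Gnmt (0.655) and the highest for Tgfa (0.571), and control 2 was the highest for Tor4a (0.628).

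The PB response differed between chimeric mice and SD rats, by the limma test of the difference, for 13 of 23 genes compared. Over all genes tested 18.9% differed. The 23 genes were chosen with earlier results of these data known, some for large changes in the chimeric arrays. Their share is therefore not an independent count. The log2 difference was 4.67 for Lpl, 2.42 for Tor4a, 2.36 for Zdhhc2, 1.77 for Cyp2b2, 1.45 for Cxcl9, 1.11 for Ephx1, 1.07 for Abcc2 and 0.583 for Gsr. It was -2.52 for Igfbp2, -1.98 for Aldh1a1, -1.64 for Abcc3, -1.34 for Elf5 and -1.32 for Inhbb. Against CAR KO rats the difference was 5.99 for Lpl, 5.89 for Cyp2b2, 3.45 for Zdhhc2, 3.2 for Cxcl9, 1.88 for Cyp3a23-3a1, 1.72 for Aldh1a1 and 1.47 for Gsr. The values for Lpl and Tor4a are fitted to chimeric controls, that for Abcc3 to SD controls and that for Elf5 to SD PB arrays, none of them well above background.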

How the results depend on the processing

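The count of 6168 genes past the threshold fell to 158 with slide as a block, 219 within slide 1 and 2560 with slide as a random block (correlation 0.201), where 950 were higher and 1610 lower. It was 5377 to 8597 under the other settings tried, and 5578 to 6736 with 1 array left out. The chimeric against SD difference fell from 3254 genes to 32 with slide as a block (2624 to 4469 with 1 array left out), and the chimeric against CAR KO difference from 3320 to 188 (2642 to 4547). Median centring moved the share of higher calls from 45.3% to 70.8%, from 33.3% to 67.5% and from 43.7% to 66.1% in these 3 comparisons. Array weights moved the first to 55.3%. Leaving out control 2, control 4 and PB 4, chosen after seeing the data, gave 6649.

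Of the 110 named genes at least 103 were past the threshold. At least 72 of these calls were lost or turned sign with slide as a block. Calls with an adjusted p that rounds to 0.05 were left out of these counts. The sign turned in both slide fits for Gclm (1.22), Ces1a (0.71), Oxnad1 (0.24), Tgfa (0.21) and Cd3d (0.0401). Calls lost when 1 array was left out included those of Alb, Mt2A, Fgg (9 arrays, adjusted p up to 0.0944) and Npas2 (9 arrays, adjusted p up to 0.0678). Whether the replicate numbers pair the samples is not settled. Deviations of same-numbered arrays correlated at -0.21 to 0.779. For replicates 4, 5 and 6, but not for the others, the same-numbered pair correlated highest among the pairs compared. The replicate block gave 7043, 3582 and 3681 genes. The 7 arrays per diet limit the precision, and signals not well above background limit the size of the changes of dim genes.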

Other observations

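Genes of the unfolded protein and ATF4 response were higher or did not pass, with 10 of 29 risen and 0 fallen (median 0.37 against 0.06 over all genes). PB 1 was above all controls for 4 of the 10, and the median with slide as a block was 0.01. Over all genes tested 19.3% rose and 23.4% fell. Acute phase genes had 2 rises and 5 falls among 29 tested (median -0.19, and 0.09 under median centring). Glucose metabolism genes had 3 rises and 6 falls among 26 (median -0.23, and 0.05 under median centring). Female-predominant rat liver genes had 5 rises and 1 fall among 13 (median 0.27).

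Markers of 2 further cell types had these sums, in units of the 75th percentile signal. Their counts of rises and falls stand beside 19.3% and 23.4% of all genes tested. Erythroid markers summed to 254 to 503 on controls, 415 on PB 1 and 446 to 798 on PB 2 to 7, with 4 of 6 tested higher. Cholangiocyte markers summed to 15.2 to 23.2 on controls, 13 on PB 1 and 6.33 to 11.5 on PB 2 to 7, with 1 of 5 tested higher and 2 lower, while markers not well above background on any chimeric array included Krt19 and Sctr. Stac3, an adaptor protein named for the size of its change, spanned -1.41 to 1.76 on controls and -4.85 to -1.24 on PB arrays and fell by 2.92 ± 0.52 (limma adjusted p = 0.000463; adjusted p = 0.279 with slide as a block). Igtp, an interferon-induced GTPase, fell by 1.12 ± 0.19 (adjusted p = 0.000303; adjusted p = 0.952 with slide as a block), with PB 1 at 7.15 inside the controls (7.10 to 7.52) and another probe at 0.04.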
